A study of Papaver somniferum with 12 samples.

Results

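The 100 most stable transcripts of opium poppy leaves between the seedling and the flowering plant are described here. Opium poppy (Papaver somniferum) was profiled by RNA sequencing of leaves at 4 growth phases, with 3 libraries for each phase and 12 in all. The phases were seedling, jointing (the stem elongates), bolting (a small bud is first seen at the tip of the stem) and florescence (first bloom). All plants were of a single cultivar, called B1 in the study, grown in an experimental plot with no treatment, and the study dates the phases before bloom by days after sprouting. According to the methods, 3 independent samples were collected at each phase. Phases were sampled in the order of the season, so growth phase and calendar time cannot be told apart.

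Expression was given for unigenes, the non-redundant sequences that the authors assembled from long reads, as RPKM, a read number scaled to the length of the unigene and to the mapped reads of the library. The table held 61856 unigenes. Candidates were the 1298 unigenes with a mean of 100 to 1000 RPKM over the 12 libraries, outside the identifier group PB.734, which held 1 unigene and none within this range. Each library was divided by its median of ratios, a factor that brings the typical unigene to the same level in all libraries, taken over the 43618 unigenes above 0 in every library. The 100 candidates with the lowest coefficient of variation (CV, the SD divided by the mean over the 12 scaled values) were taken as members. The scaled values of all 12 libraries therefore chose the members, and their low variation is a description and not a finding.

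Transcripts whose level hardly changes are commonly used as internal references, against which other transcripts are measured, for example in quantitative PCR. In plants such references are usually taken from basic cell functions, such as actin and tubulin of the cytoskeleton, ubiquitin of protein turnover, or elongation factors of translation. None of the 61856 identifiers occurred in the gene table of the assembly ASM357369v1, and the functional annotation that the study describes for its unigenes was not used here, so the members are given without names, functions or sequences and leaf markers were not checked. No 2 unigenes shared the middle number of their identifier, so sister forms of the members could not be recognised by identifier. Sequences were not compared.

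The total of RPKM per library ran from 998634 to 1175897, and no pair of libraries held identical values. The RPKM do not give the number of reads behind a value, although the study lists the clean bases of each library. The median-of-ratios factor had a mean of 0.859 ± 0.0369 in the seedling libraries, 1.17 ± 0.0945 in the jointing libraries, 0.904 ± 0.0535 in the bolting libraries and 1.17 ± 0.0510 in the florescence libraries (SD, n = 3). The typical unigene thus had a higher deposited value at jointing and florescence than at seedling and bolting. In whole leaves, fewer cells of a type and less RNA per cell cannot be told apart.

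The members had CVs from 6.62% to 14.2%, with a median of 11.9%. The candidates that were not chosen had a median CV of 30.0%. Within a phase the libraries of a member differed by a median CV of 7.58%, against 14.1% for the 1198 candidates not chosen. The highest phase mean of a member was 1.09 to 1.43 times its lowest, with a median of 1.25, and 98 of 100 members stayed under 1.4 times. Among the candidates not chosen the median was 1.98 times. Single libraries spread further, and the highest library of a member was 1.24 to 1.73 times its lowest.

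**Figure D1:**
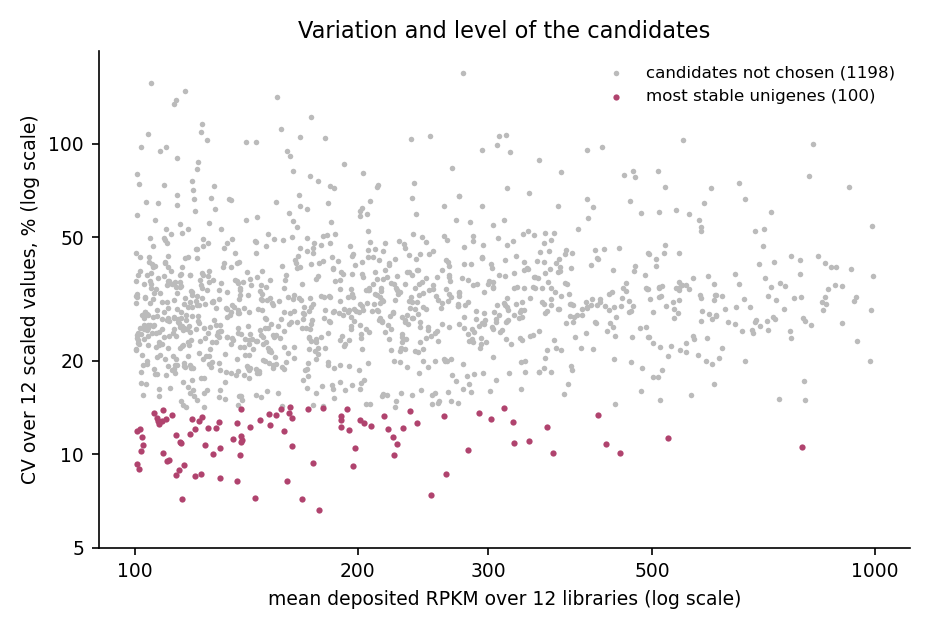
Coefficient of variation over the 12 scaled values in percent (log scale) against the mean deposited RPKM (log scale) for the 1298 candidates, with the 100 members in dark red and the 1198 others in grey. The members fill the band below 14.2% and thin out above 500 RPKM.

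Members were found mostly at the lower end of the level window. Their median of the mean deposited RPKM was 149.6, against 203 for the candidates not chosen. Of the 445 candidates with 100 to 150 RPKM, 50 were members (11.2%), and of the 144 candidates with 500 to 1000 RPKM, 2 were (1.39%). The last number of the identifier had a median of 3 in members and in the candidates not chosen, and it was 1 in 20% and 22.1%. The meaning of that number is not given in the sources used here.

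The lowest CV, 6.62%, belonged to PB.57879.2. Its scaled RPKM was 154, 172 and 166 at seedling, 179, 168 and 163 at jointing, 186, 184 and 171 at bolting, and 179, 189.8 and 158 at florescence. The libraries of all phases overlapped, and the bolting mean was 1.1 times the seedling mean. PB.22374.3, with a CV of 7.18%, had 116, 113 and 120.3 at seedling, 109, 91.8 and 111 at jointing, 123, 113 and 109.9 at bolting, and 116, 121 and 111 at florescence. A single jointing library, at 91.8, stood below its other 11 values, which lay between 109 and 123.

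PB.57251.4 had a mean of 172 ± 11.6 scaled RPKM at seedling, followed by 168 ± 11.1 at jointing, then 166 ± 11.2 at bolting and finally 151 ± 3.99 at florescence (SD, n = 3), with a CV of 7.19%. PB.59082.2 had 147 ± 7.28, 138 ± 8.88, 151 ± 5.71 and 133 ± 9.90 in the same order, with a CV of 7.26%. In both the lowest mean was at florescence. PB.45520.4, with a CV of 7.42%, had 229 ± 7.19 at seedling and 231 ± 15.6 at jointing, beside 258 ± 12.6 at bolting and 256 ± 15.6 at florescence, so that its small difference lay between the earlier and the later phases.

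**Figure D2:**
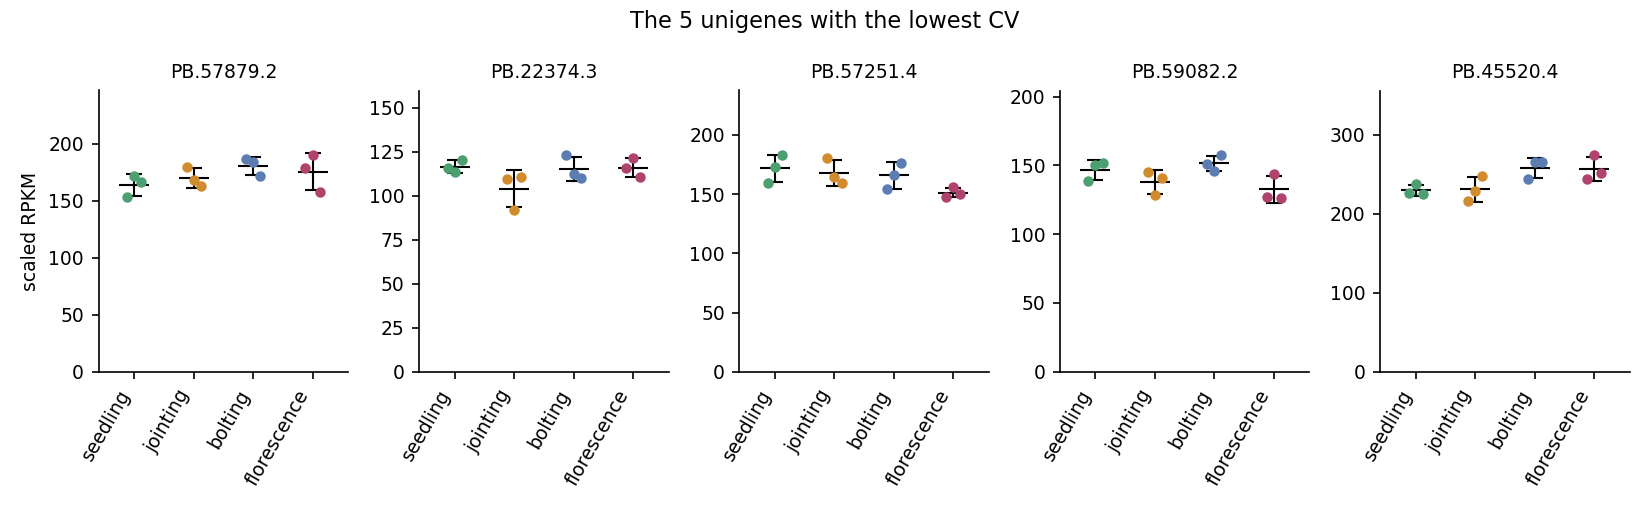
Scaled RPKM of the 5 members with the lowest CV in each of the 12 libraries (points), by phase, with the phase mean and its SD (bars, n = 3), on axes that start at 0. In PB.57879.2 the means of the phases lie between 164 and 181, and in PB.45520.4 between 229 and 258.

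The member with the highest level was PB.21026.6. Its scaled RPKM was 846, 886 and 856 at seedling, 740.1, 739.6 and 911 at jointing, 743, 692 and 670.1 at bolting, and 742, 809.6 and 688 at florescence. The seedling libraries lay above all bolting and florescence libraries, although the CV was 10.5%. PB.5871.55 followed with 581 ± 29.8 at seedling, with lower means of 487 ± 28.7 at jointing, of 469 ± 19.3 at bolting and of 515 ± 74.1 at florescence (SD, n = 3). At the lower end stood PB.3817.55 and PB.57854.2, with mean scaled values of 98.0 and 98.5. PB.57854.2 had 109.9 ± 2.03 at seedling and 88.0 ± 6.81 at florescence, whereas PB.3817.55 had its lowest mean at bolting, 83.6 ± 6.90, and its highest at florescence, 111 ± 6.92.

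The last member inside the limit, PB.390.35, had a CV of 14.17%, and the first candidate outside, PB.50577.5, had 14.17% as well, so nothing parts them at this precision. PB.390.35 had a mean of 137 ± 12.3 scaled RPKM at seedling and 176 ± 26.3 at jointing. PB.50577.5 had 227 ± 11.1 and 238 ± 28.7 (SD, n = 3).

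A low CV over 12 libraries did not mean an even level over the phases. The largest fold between phase means was that of PB.56843.1, which had 119, 131 and 120.3 scaled RPKM at seedling, 88.6, 83.6 and 86.4 at jointing, 103, 104 and 105 at bolting, and 114, 119.8 and 111 at florescence. Its libraries at jointing lay below all others, and its seedling mean was 1.43 times its jointing mean. PB.57488.2 was next at 1.41 times, with 160.2, 168 and 185 at seedling, 154, 150.4 and 143 at jointing, 161, 162 and 154 at bolting, and 126, 125 and 113 at florescence. Here the florescence libraries lay below all others. Over all members a median of 63.2% of the squared deviation on the log2 scale lay between the phases, which hold 3 of the 11 degrees of freedom, and it was 82.1% for the candidates not chosen.

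The remaining variation of the members leaned to a shared direction, though not in all of them. After scaling, the highest phase mean was at seedling in 54 members, at bolting in 23, at florescence in 19 and at jointing in 4. The lowest was at jointing in 47, at florescence in 34, at bolting in 10 and at seedling in 9. The most frequent pairs were seedling highest with jointing lowest (27 members) and seedling highest with florescence lowest (24 members). The candidates not chosen had the same phase in front, with seedling highest in 44.1%, while their lowest phase was florescence in 47.4% and jointing in 41.0%. Jointing was highest in 20.6% of these candidates, more often than in the members. Across the 12 libraries, 75.5% of the 4950 pairs of members had a Pearson correlation above 0, with a median of 0.33. These pairs share libraries and scaling factors.

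Single libraries also stood apart. Florescence replicate 3 was the lowest of the 12 libraries for 29 members and jointing replicate 2 for 21, while seedling replicates 3 and 2 were the highest for 24 and 20. The spread among members was largest in jointing replicate 3, where the SD of the log2 deviation from the own mean was 0.20, against 0.11 to 0.17 in the other 11 libraries. It was the highest library for 15 members and the lowest for 17, and 76 of the 100 members were chosen again without it. RNA integrity, as the study lists it, also differed between the phases. Among the 12 libraries it was highest at jointing, with jointing replicate 3 at the top, and lowest on average at florescence. Whether it bears on these differences was not tested. Within 20% of their own mean lay 85 members in florescence replicate 3 and all 100 in bolting replicate 3.

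Without the scaling, the members were not level. The geometric mean of the 100 members in deposited RPKM was 148 ± 0.348 at seedling and 149 ± 10.3 at bolting, beside 181 ± 17.7 at jointing and 186 ± 11.9 at florescence (SD, n = 3 libraries). In scaled RPKM it was 172 ± 7.06 at seedling and 165 ± 4.88 at bolting, beside 154 ± 5.64 at jointing and 158 ± 12 at florescence. The direction between seedling and the jointing or florescence phase was thus opposite on both scales. In deposited values 0 of 100 members had the highest phase mean at seedling or bolting, 41 had it at jointing and 59 at florescence. PB.57879.2, the most even member after scaling, had 138, 143 and 141 deposited RPKM at seedling and 203, 219 and 195 at florescence, and these groups did not overlap. Over the 12 libraries its deposited CV was 16.2%.

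**Figure D3:**
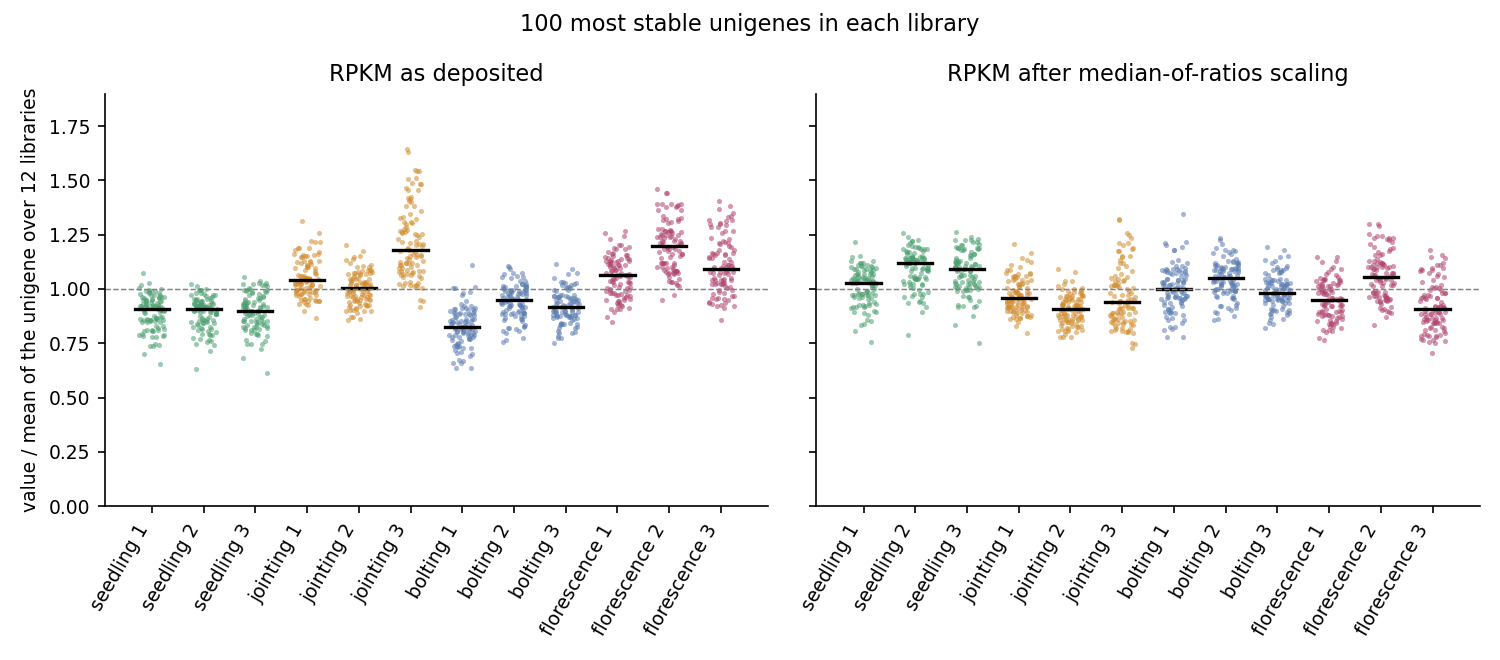
Value of each of the 100 members in each library divided by its own mean over the 12 libraries, as deposited (left) and after median-of-ratios scaling (right), coloured by phase, with the median as a black bar. As deposited, the jointing and florescence libraries sit higher than the seedling and bolting libraries. After scaling, the medians of seedling replicates 2 and 3 lie highest and those of jointing replicate 2 and florescence replicate 3 lowest.

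How far the members differed between phases was described with limma on log2(RPKM + 1), fitted over the 31242 unigenes that averaged 1 RPKM or more, all 100 members among them. Calls were made at a Benjamini-Hochberg adjusted p under 0.05. As the rule chose the members on the same libraries, the counts below only describe them. When a log2 difference of 1 or more was also required, as in the 2-fold threshold of the study, 0 of 100 members were called in any of the 6 comparisons of deposited values. No member reached that difference, the largest being 0.926 in florescence against seedling. The background shares of called unigenes were 5.63% (jointing against seedling), 1.46% (bolting against seedling) and 9.43% (florescence against seedling). They were 3.27% and 10.3% when bolting and florescence were set against jointing, and 8.06% in florescence against bolting. At an unadjusted p under 0.05, with no threshold on the difference, limma gave 53 members beside 55.3% of all tested unigenes (jointing against seedling), 9 beside 19.2% (bolting against seedling) and 56 beside 56.4% (florescence against seedling). It gave 48 beside 44% for bolting and 29 beside 44.2% for florescence when these were set against jointing, and 59 beside 51.8% in florescence against bolting. Over all 4 phases the moderated F test of limma called 0 members with this threshold, against 18.3% of all tested unigenes, and 62 members without it, against 69.1%.

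Without the threshold on the difference, members were called in deposited values in 5 of the 6 comparisons. For jointing against seedling 38 members were called, all higher, beside a background of 39.5% higher. For florescence against seedling 51 were called, all higher, beside 41.1% higher. For florescence against bolting 45 were called, all higher, beside 35.9%, and for bolting against jointing 32 were called, all lower, beside 24.5%. For florescence against jointing 11 were higher and 4 lower, beside 18.6% and 16.1%. For bolting against seedling 0 were called by limma, beside 4.25% (9 at an unadjusted p under 0.05, beside 19.2%).

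After median-of-ratios scaling the calls were fewer in 4 of the 6 comparisons, and in these the prevailing direction turned. For jointing against seedling 18 members were called, all lower, beside a background of 14.7% lower. For florescence against seedling 3 were higher and 18 lower, beside 13.2% and 17.6%. For bolting against jointing 3 were called, all higher, beside 6.68%. For florescence against jointing 11 were higher and 6 lower, beside 18.8% and 17.4%, and for florescence against bolting 4 were higher and 8 lower, beside 12.9% and 15%. For bolting against seedling 0 were called by limma, beside 5.36% (17 at an unadjusted p under 0.05, beside 21.7%). The F test called 35 members, beside 47.1%.

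The size of these shifts differed between the members, their candidates and all unigenes. The median difference from seedling to jointing on the log2(RPKM + 1) scale was 0.28 for the members, 0.00 for the 1298 candidates and 0.34 for all 31242 tested unigenes in deposited values. After scaling it was -0.16, -0.44 and 0.00. From seedling to florescence the deposited medians were 0.28, -0.05 and 0.33, and the scaled medians were -0.17, -0.50 and -0.01. In both comparisons and on both scales the members' median lay between that of the candidates and that of all tested unigenes. These medians are of signed differences, and single candidates moved in either direction. From jointing to florescence the members had a median of 0.07 on both scales, above both other groups. The candidates and all tested unigenes had -0.08 and 0.007 as deposited, and -0.09 and 0.005 after scaling. From bolting to florescence as deposited the members' 0.30 also lay above the 0.11 of the candidates and the 0.29 of all tested unigenes. In the remaining comparisons the members' median lay between.

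Which unigenes counted as most stable depended on the scaling, and the plot of members chosen again gives each choice. Each scaling picked 100 of the same 1298 candidates, so some members would recur even without agreement between scalings. With the deposited values 22 of the 100 members were chosen again from the same candidates, with libraries scaled to equal totals 4, with quantile normalization 40, and with the median of ratios taken only over unigenes of at least 10 RPKM 60. The members' median CV was 14.5% as deposited, 18.5% with equal totals, 11.9% with quantile normalization and 9.81% with the last of these. The SD of the log2 ratio between 2 unigenes over the 12 libraries does not change when each library is multiplied by a factor of its own. Ranked by its mean over the other candidates, 25 of the 100 members were again among the lowest 100 of 1297 candidates above 0 in all libraries, and PB.57879.2 was at rank 323.

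**Figure D4:**
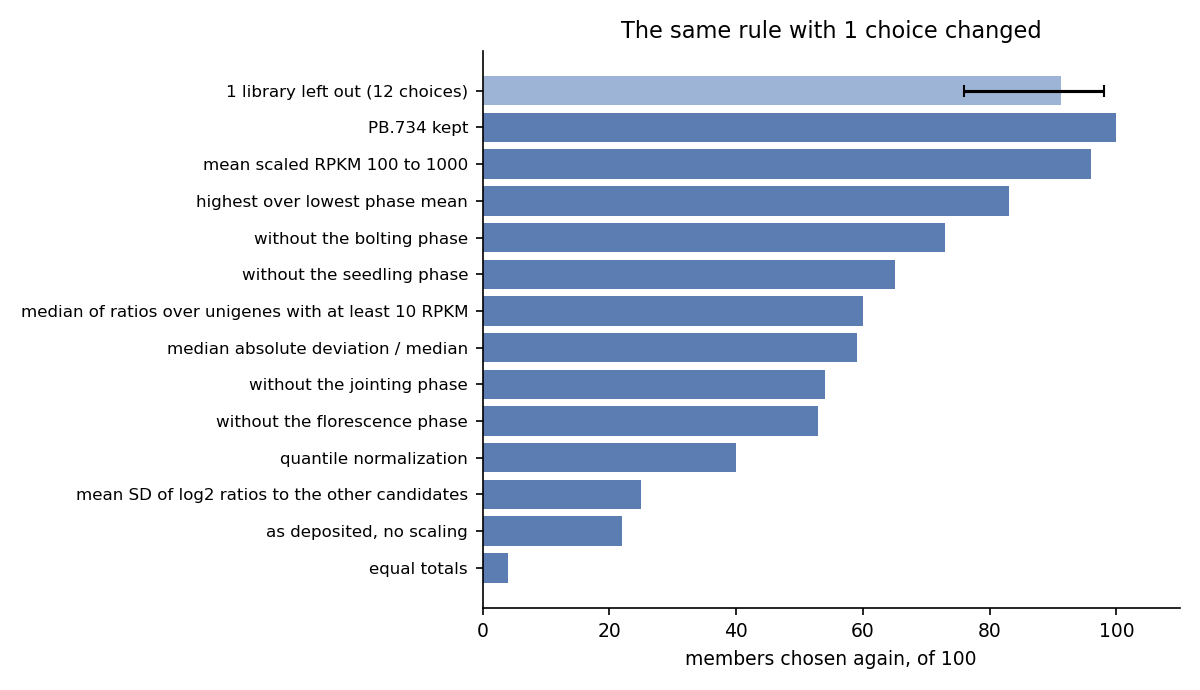
Number of the 100 members that are chosen again when 1 choice of the rule is changed. The top bar is the mean over 12 choices that each leave out 1 library, with a line from the lowest (76) to the highest (98). The shortest bars are those of equal totals (4) and of the deposited values (22).

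Only 4 members were chosen under all 5 scalings, and they are named after their values were seen. They were PB.57441.8, PB.58786.2, PB.57488.2 and PB.55993.6, at places 60, 61, 88 and 95 of the 100, so none was among the members with the lowest CV. PB.57441.8 had 339, 337 and 334 deposited RPKM at seedling, 371, 377 and 388 at jointing, 362, 352 and 348 at bolting, and 373, 399.6 and 345 at florescence. Its CV was 5.88% as deposited and 12.3% after median-of-ratios scaling, where the seedling mean was 393 ± 14.9, the bolting mean 393 ± 32.0 and the florescence mean 318 ± 33.9 (SD, n = 3). PB.58786.2 had 187, 179 and 178 deposited RPKM at seedling, 202, 194 and 211 at jointing, 173, 194 and 183 at bolting, and 182, 212 and 181 at florescence, with CVs of 6.88% as deposited, 9.95% with equal totals, 4.63% with quantile normalization and 12.3% after median-of-ratios scaling. By the pairwise measure these 4 were at ranks 22, 4, 33 and 8. That measure is taken against the other candidates. The geometric mean of all candidates had a CV of 5.10% as deposited and 16.9% after median-of-ratios scaling. As the 4 were also chosen on deposited values, their ranks are not independent of that choice.

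The most constant ratio between 2 members was that of PB.57104.2 to PB.53297.1, the lowest of the 4950 pairs and named after its values were seen. It ran from 0.527 to 0.606 over the 12 libraries, with an SD of 0.056 on the log2 scale. The median SD over all pairs was 0.19. The geometric mean of several members varied less than single ones. Its CV over the 12 scaled libraries was 6.62% for the first member alone, 4.24% for the first 3, 4.34% for the first 10 and 6.11% for all 100, and it was 16.9% for all 1298 candidates. On deposited values the order was opposite, with 12.6% for the 100 members and 5.10% for all candidates. The scaled values are those that chose the members.

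The same rule was also applied to 3 phases at a time, and the 100 unigenes so chosen were read in the phase left out. With bolting left out, the chosen unigenes differed from their mean in the other 9 libraries by a median of 1.09 times in either direction, and 77 of 100 stayed within 1.2 times. With seedling left out the median was 1.17 times and 60 stayed within 1.2 times. With jointing and with florescence left out it was 1.26 and 1.28 times, and 40 and 36 stayed within 1.2 times. The candidates not chosen on the same libraries differed by 1.23 times at bolting, 1.26 at seedling, 1.44 at jointing and 1.43 at florescence. Within 1.2 times stayed 43.9%, 38.2%, 25.7% and 26.2% of them in the same order. Unigenes are not replicates, so no test was made of these medians.

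The chosen unigenes also moved to the same side as the candidates not chosen. In the seedling phase left out 86 of 100 were higher than in the other phases, with a median log2 ratio of 0.21, beside 0.29 for the candidates not chosen. In jointing 14 were higher, with -0.30 beside -0.38, and in florescence 26 were higher, with -0.27 beside -0.42. In bolting 53 were higher, with 0.01 beside 0.07. Beyond 1.5 times lay 4 of the chosen unigenes at seedling and 1 at bolting, beside 19 at jointing and 24 at florescence. Between 53 (without florescence) and 73 (without bolting) of the 100 members were chosen again on 9 libraries.

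**Figure D5:**
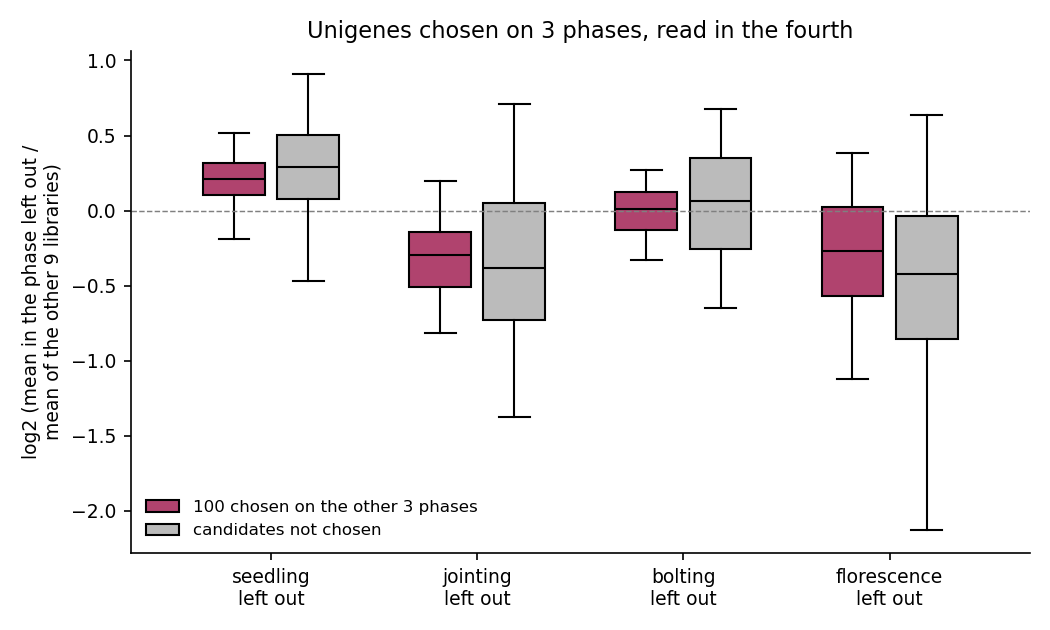
Log2 ratio of the mean scaled RPKM in the phase left out to the mean of the other 9 libraries, for the 100 unigenes chosen on the other 3 phases (dark red) and the candidates not chosen (grey). Boxes span the quartiles with the median, whiskers the 5th to 95th percentile. The boxes of the chosen unigenes are narrower than the grey ones in all 4 phases and are shifted to the same side of 0, with medians of 0.21, -0.30, 0.01 and -0.27.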

How the data were processed

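Leaf RNA of opium poppy was sequenced with paired ends on an Illumina instrument in 12 libraries, 3 for each of 4 growth phases. According to the methods, clean reads were mapped with hisat2 (version 2.05 per the labels) to unigenes from pooled long reads, and RSEM gave their abundance. The deposited values are RPKM, made by the authors with no stated scaling between libraries, while their methods name the fragment-based form. RSEM divides reads between similar unigenes, so values of unigenes with close relatives are uncertain. RPKM keeps no depth, so no counting error was computed.

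Libraries were assigned by title and columns by the library code in the description. The members and lists were chosen with earlier results of these data known. Scaling and selection used Python 3.11.15 with pandas 2.3.3. Comparisons used limma 3.58.1 in R 4.3.3 with a mean-variance trend on log2(RPKM + 1), 12 libraries in a single fit with phase as the only factor, for unigenes that averaged 1 RPKM or more. Only for florescence and seedling did all 3 pairs with a shared replicate number correlate over 0.1 in their deviations from the phase mean. The labels give no pairing, and none was established. Both procedures were tested on simulated data with planted rows. The simulation of the rule held no shift between phases, so it does not bear on the choice of scaling. The count test of the study was not applied to RPKM. Named are the 5 members with the lowest CV, the 2 highest and 2 lowest in level, the last inside and first outside the limit and the 2 with the largest fold between phases. Others are given as named after their values were seen. Alternatives were other scalings, spread measures, filters, pseudocounts, a replicate block and leaving out libraries or phases.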

Additional observations from a re-analysis of the deposited data

How the results depend on the processing

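The members chosen again, 100 by construction, numbered 22 as deposited, 4 with equal totals, 40 with quantile normalization, 60 with median of ratios over unigenes of at least 10 RPKM, 59 with the median absolute deviation over the median, and 65, 54 and 53 without the seedling, jointing and florescence phase. The pairwise measure, added after seeing the data, gave 25. With 1 library left out it was 76 (without jointing replicate 3) to 98. As each scaling picked 100 of 1298 candidates, some members would recur even without agreement. The median CV of 11.9% became 14.5% as deposited, 18.5% with equal totals and 9.81% with the 10 RPKM minimum, and 11.1% to 12.1% with a library left out. The median fold between phase means of 1.25 became 1.37 as deposited and 1.44 with equal totals, and 1.24 to 1.28 with a library left out.

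The median absolute log2 ratio in the phase left out was 0.230 (seedling), 0.336 (jointing), 0.124 (bolting) and 0.356 (florescence). With unigenes chosen and read on deposited values it was 0.115 at seedling, 0.217 at jointing and 0.242 at florescence, with equal totals 0.137, 0.215 and 0.296, and with quantile normalization 0.127, 0.192 and 0.257, with 0.0944 at bolting. The cause was not tested.

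Members called with a difference of at least 1 numbered 0 in all comparisons under every alternative run that kept this threshold, except that without seedling replicate 1 a count of 1 was reached in florescence against seedling and over all phases. With a library left out the range was thus 0 to 1 in these and 0 in the other 5 comparisons. The share of all tested unigenes called without seedling replicate 1 was not computed. Without the threshold the counts were 38 (jointing against seedling), 51 (florescence against seedling), 32 (bolting against jointing), 15 (florescence against jointing), 45 (florescence against bolting) and 62 (all phases). With median of ratios added they were 18, 21, 3, 17, 12 and 35, and with equal totals in its place, added after seeing the data, 45, 72, 41, 21, 79 and 87, beside 46.4%, 57.2%, 30.3%, 33.9%, 53.2% and 74.2% of all tested unigenes. The shares here and below count calls in either direction, unlike the shares by direction given earlier. The replicate block gave 0 calls at the threshold in each comparison, but it could not have done otherwise. A block balanced over the phases leaves the differences as they are, and the largest of a member was 0.926 (florescence against seedling). The fits with no filter, with a mean of at least 10 RPKM and on the 6 libraries of a comparison leave them as they are too. After median of ratios the largest was -0.509 (jointing against seedling). The 0 calls of these fits were thus fixed as well. With the block, median of ratios and no threshold, added after seeing the data, the counts were 16, 15, 2, 15, 9 and 24, beside 19.9%, 29.5%, 9.69%, 34.7%, 26.6% and 43.9%. With the block on deposited values and no threshold, also added, they were 38, 49, 27, 14, 45 and 63, beside 44.5%, 48.4%, 25.9%, 34.1%, 42.3% and 67.5%. Deviations from the phase mean had a correlation over 0.1 in 7 of 18 pairs of libraries with a shared number. Among these were all 3 pairs of florescence and seedling (0.245 to 0.379), and in no other comparison did all 3 pass. The lowest correlation was -0.626, for replicate 2 in bolting against jointing. Libraries of unlike number were not compared, so no pairing was established. In florescence against seedling the block, fitted over all 12 libraries, moved the count from 51 to 49 as deposited and from 21 to 15 after scaling. No sister unigenes of the members could be recognised from the identifiers, so their variation was not computed.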
